A study of Mus musculus with 6 samples.

Results

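The plasma membrane calcium pumps and the mobile calcium buffers of the vestibular epithelium were followed in mice exposed to 3,3'-iminodipropionitrile (IDPN), a nitrile toxic to vestibular and cochlear hair cells (HCs). The set holds 9 genes picked by symbol, 4 pump genes (Atp2b1, Atp2b2, Atp2b3 and Atp2b4) and 5 buffer genes (Calb1, Calb2, Ocm, Pvalb and S100a1), out of 52636 genes in the count table. The tissue came from male 129S1/SvImJ mice aged 2 to 4 months. The 3 IDPN animals had 30 mM IDPN in their drinking water for 8 weeks, and the 3 Control animals had plain water. Each library came from 1 animal and pooled its 2 utricles and 6 cristae, the organs that sense linear and angular head movement, so that the sensory organs were not separated. RNA was sequenced after SMART-seq2 amplification, which copies polyadenylated RNA and keeps neither strand nor molecular identifiers.

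HCs turn movement into current through channels at the tips of their stereocilia, and calcium enters through the same channels. Plasma membrane calcium ATPases (PMCAs) pump this calcium out of the cell with ATP as fuel, and the PMCA2 protein encoded by Atp2b2 is the form best known from stereocilia. Calbindin (Calb1), calretinin (Calb2), oncomodulin (Ocm) and parvalbumin (Pvalb) are EF-hand proteins that bind free calcium in the cytosol, and S100a1 encodes a small EF-hand protein of the S100 family. In vestibular organs, calretinin is a known marker of type II HCs and of some afferent calyces, while oncomodulin is known from HCs of the striola and the central crista.

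Total estimated counts ran from 40474847 to 43566332 per library, and the labels set no batches apart among the 6 libraries. Animal codes in the titles began alike for all 3 Control mice and differently for the IDPN mice, and treatment cannot be told apart from what that prefix marks. The labelled tissue was checked against its markers. Of 30 HC marker genes, 29 were in the table and all 29 were detected, led by Ush1c and Cabp2, and their summed normalized counts were 82767 to 89465 in Control and 55358 to 60364 in IDPN. Vestibular neuron markers summed to between 5170 and 5424 in Control and between 3279 and 3611 in IDPN, a sum made up mainly of Nefl and Nefm. Snap25 and Syt2 followed at mean normalized counts of 506 and 142, both lower in all IDPN libraries. Several genes of that list were scarce, such as Tubb3 and Stmn2 (mean normalized counts 9.47 and 9.79). Prph and Elavl4, also with few counts, were higher in all IDPN libraries. In bulk RNA, fewer cells of a type and less RNA per cell cannot be told apart, and this holds for every difference given here. Normalized counts are estimated counts divided by DESeq2's median-of-ratios size factors. Scaling by total counts instead raised the median fold change of 16418 genes by 0.25 on the log2 scale. Calls of members that this ended are named below.

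A gene was called when its adjusted p in the DESeq2 Wald test over all genes was under 0.05 and its fold change exceeded 1.5. Of the 9 members, 4 were called lower in IDPN (Ocm, Atp2b2, Calb2 and S100a1), against 3.42% of the 17650 genes tested. No member was called higher by DESeq2, against 2.32% of all genes. At an unadjusted p under 0.05, 0 members were higher, against 7.77% of all genes, and edgeR called 0 higher, against 1.02%. The 3 IDPN libraries lay below all 3 Control libraries for 6 members, against 11.4% of all genes, and these were all 5 buffers and 1 of the 4 pumps. No member lay wholly above Control, against 11.1% of all genes. The median log2 fold change was -0.64 over the pumps, -0.71 over the buffers and 0.02 over all genes tested. With total-count scaling 2 members were called lower (1.28% of all genes), with the edgeR quasi-likelihood test 3 (2.19%) and in a test against a fold change of 1.5 only 1 (0.582%). Atp2b2 and Ocm belong to the genes the study listed as downregulated in all of its comparisons, a list chosen in part on these libraries, so their fall is not independent evidence of that direction.

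**Figure D1:**
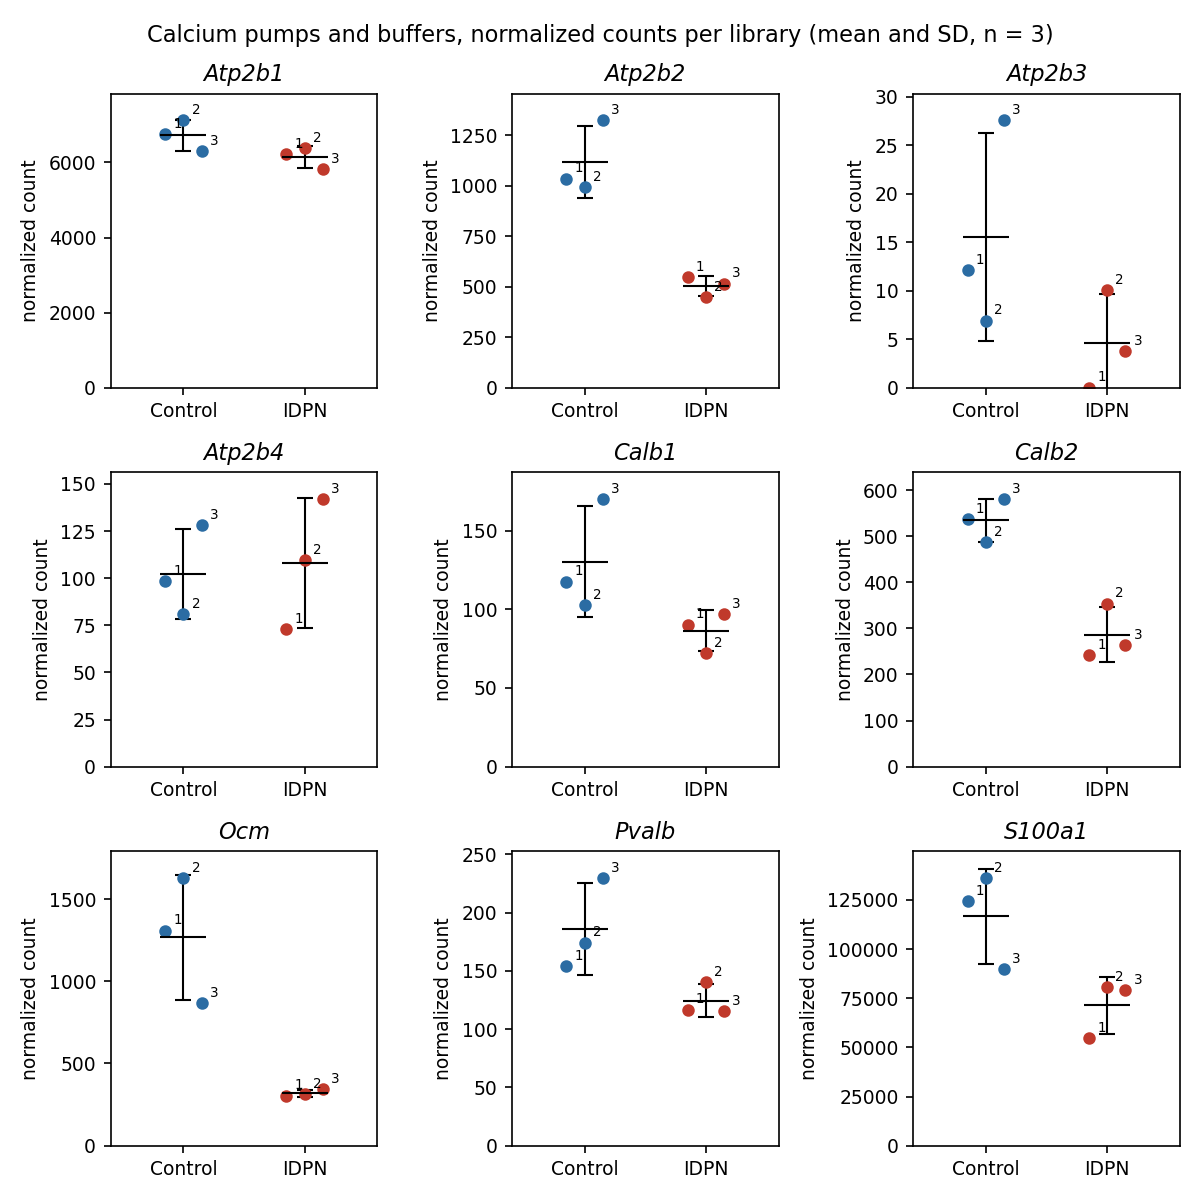
Normalized counts of the 9 genes in each library (y axes start at 0 and differ between panels), with numbers marking the replicate, horizontal lines the mean and bars the SD of 3 libraries. IDPN libraries lay below all Control libraries for Atp2b2, Calb1, Calb2, Ocm, Pvalb and S100a1, with Ocm at 304 to 344 in IDPN against 867 to 1626 in Control.

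Among the pumps, Atp2b2 fell while the more abundant Atp2b1 stayed close to its Control level. Atp2b2 lies on the minus strand of chromosome 6 (GRCm38 chr6:113743831-114042613). Its normalized counts were 1036, 995 and 1326 in Control and 547, 448 and 515 in IDPN. The groups did not overlap, and the lowest Control library was well above the highest IDPN library. The mean in IDPN was 45.0% of that in Control, a log2 fold change of -1.15 (SE 0.19, DESeq2 adjusted p = 1.80e-07). The call remained with edgeR (adjusted p = 0.00531) and with total-count scaling (-0.91, DESeq2 adjusted p = 0.0255). Leaving out each library in turn gave -1.23 to -1.01, all called. It was lost only when the test asked for a fold change above 1.5 in itself (DESeq2 adjusted p = 0.251).

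Atp2b1 encodes PMCA1, the pump found in most cell types, and lies on the plus strand of chromosome 10 (GRCm38 chr10:98914406-99026143). Normalized counts were 6748, 7125 and 6303 in Control and 6222, 6386 and 5822 in IDPN. The highest IDPN library was above the lowest Control library. The log2 fold change was -0.13 (SE 0.14, 95% interval -0.41 to 0.15, DESeq2 adjusted p = 0.734), and with total-count scaling it turned to 0.13. Its 95% interval lay within a fold change of 1.5 in either direction, and that of Atp2b2 (-1.52 to -0.78) lay wholly below it.

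The promoter windows of these pumps are shown because Atp2b2 fell and Atp2b1 was not called. Each is the 250 bases before a RefSeq transcription start (GRCm38.p6), 5′ to 3′ on the gene's strand, with CG dinucleotides in capitals, and the windows printed are free of annotated exons. RefSeq windows were given for 6 of the 9 members. Both printed Atp2b2 windows (minus strand, chr6:113934682-113934931 and chr6:113891540-113891789) and the Atp2b1 window (plus strand, chr10:98914902-98915151) lie in introns of their own genes, ahead of internal starts.
Atp2b2, chr6:113934682-113934931: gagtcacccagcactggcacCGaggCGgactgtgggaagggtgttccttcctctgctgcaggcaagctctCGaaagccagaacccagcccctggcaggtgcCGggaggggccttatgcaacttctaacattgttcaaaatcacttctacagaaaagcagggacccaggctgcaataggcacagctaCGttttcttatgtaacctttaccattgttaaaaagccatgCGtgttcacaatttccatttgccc
Atp2b2, chr6:113891540-113891789: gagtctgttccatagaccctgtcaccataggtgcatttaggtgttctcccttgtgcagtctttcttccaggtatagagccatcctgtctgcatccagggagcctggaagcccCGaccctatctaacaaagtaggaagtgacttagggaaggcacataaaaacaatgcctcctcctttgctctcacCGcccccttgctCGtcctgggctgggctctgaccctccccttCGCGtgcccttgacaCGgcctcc
Atp2b1, chr10:98914902-98915151: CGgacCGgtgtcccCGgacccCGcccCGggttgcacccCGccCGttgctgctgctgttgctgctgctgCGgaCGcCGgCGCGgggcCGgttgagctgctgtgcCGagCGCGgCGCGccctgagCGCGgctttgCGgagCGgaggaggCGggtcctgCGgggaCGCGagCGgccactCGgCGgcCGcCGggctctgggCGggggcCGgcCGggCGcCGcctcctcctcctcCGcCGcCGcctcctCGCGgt
The Atp2b1 window held 41 CG dinucleotides and was 80.8% G or C. The Atp2b2 windows held 6 CG each at 52.0% and 55.6% G or C, which is also the median of 6 CG over all 32851 windows of this length. The window of the outermost Atp2b2 start (chr6:114042081-114042330), not printed because 138 of its bases are annotated exon, held 16 CG at 69.6% G or C. That of the outermost Atp2b1 start (chr10:98914392-98914641), not printed because 236 of its bases are annotated exon, held 43 CG at 78.4% G or C. At least 1 CG was present in 92.1% of all windows. Methylation and factor binding were not measured here.

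The remaining pumps were scarce. Atp2b4 (PMCA4; GRCm38 chr1:133699457-133801041, minus strand) had 98.2, 80.8 and 128 normalized counts in Control and 72.8, 109 and 142 in IDPN, with full overlap. Its log2 fold change of 0.07 (SE 0.35) had a 95% interval of -0.61 to 0.75, which holds a fold change of 1.5 in both directions (DESeq2 adjusted p = 0.956). Atp2b3, which encodes the mainly neuronal PMCA3 (GRCm38 chrX:73503086-73571005, plus strand), was at the edge of detection. Its estimated counts before scaling were 10, 6 and 31 in Control and 0, 10 and 4 in IDPN. The estimate of -1.79 had an SE of 1.09, so no difference was detectable at this depth (DESeq2 adjusted p = 0.421), and the low-count filter of edgeR left the gene out.

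Since sequence length differs between these genes, levels were compared per kilobase (kb) of annotated exon. In Control, S100a1 stood far above the rest at 168017 ± 34757 (SD, n = 3) normalized counts per kb, and it was the gene of rank 43 among all genes by mean normalized count. It was followed by Ocm at 1729 ± 520 (SD, n = 3), Atp2b1 at 442 ± 27.1, Calb2 at 307 ± 26.7, Pvalb at 179 ± 37.5, Atp2b2 at 88.7 ± 14.3, Calb1 at 26.8 ± 7.28, Atp2b4 at 8.36 ± 1.95 and Atp2b3 at 3.23 ± 2.23. No pair of neighbours in this order overlapped between libraries. The order of the means was the same in IDPN, where 103021 per kb was left for S100a1 and 437 for Ocm. There the ranges of Ocm (414 to 470) and Atp2b1 (383 to 420) overlapped, so that oncomodulin RNA no longer stood apart from that of PMCA1.

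Within a library, the share of each pump in the summed pump level per kb does not depend on scaling. Atp2b2 made up 15.3%, 14.2% and 19.6% of the pump level in Control and 9.47%, 7.62% and 9.37% in IDPN. Every IDPN library was below every Control library, with means of 16.4% ± 2.86 and 8.82% ± 1.04 (SD, n = 3; exact permutation test, two-sided, p = 0.10, the smallest that 3 against 3 libraries allow). Atp2b1 made up 81.5% ± 3.66 in Control and 89.0% ± 1.13 in IDPN (SD, n = 3). The summed pump level per kb in IDPN was 83.6% of that in Control with median-of-ratios scaling and 99.5% with total-count scaling, so the balance between pumps differed under either scaling while the fall of the sum did not hold under both.

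**Figure D2:**
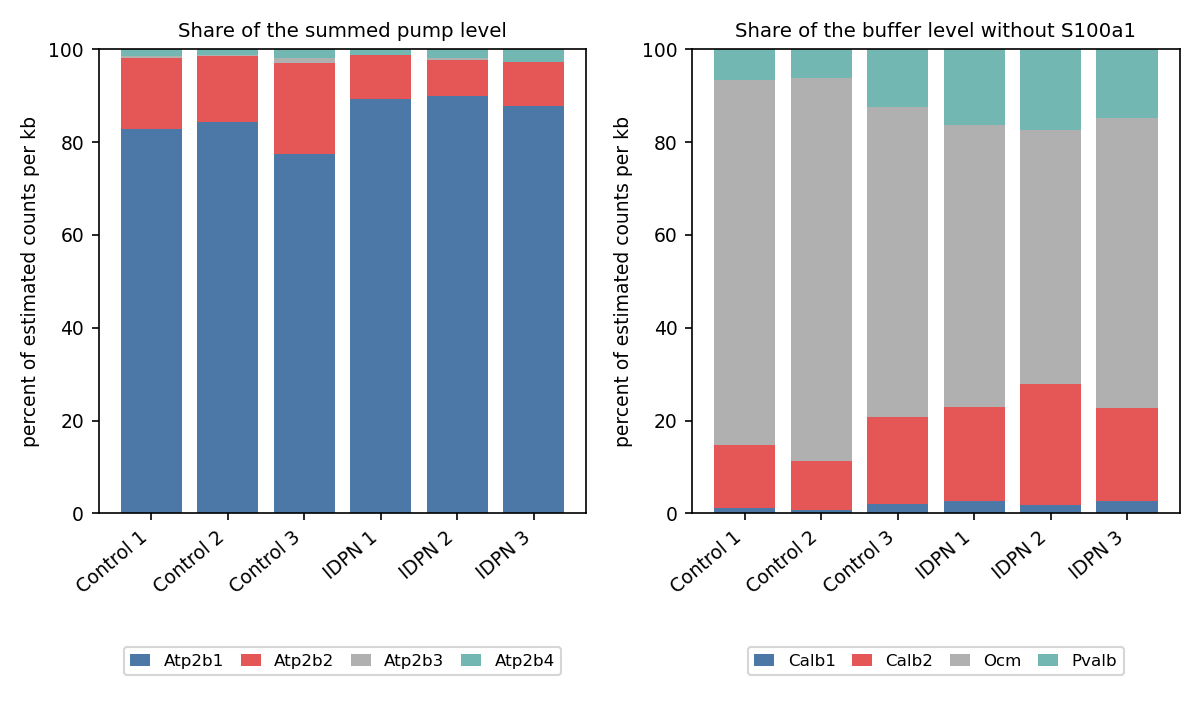
Stacked bars give each gene's percent of the summed estimated counts per kb in each library, for the 4 pumps (left) and for the 4 buffers other than S100a1 (right). Atp2b2 took 14.2% to 19.6% of the pump level in Control and 7.62% to 9.47% in IDPN, and Ocm took 66.8% to 82.6% of this buffer level in Control and 54.7% to 62.5% in IDPN.

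Among the buffers, Ocm fell most. Its normalized counts were 1307, 1626 and 867 in Control and 304, 312 and 344 in IDPN. Control 3 was lower than the other Control libraries, and all IDPN libraries lay close together far below it. The mean in IDPN was 25.3% of that in Control, a log2 fold change of -1.98 (SE 0.23, DESeq2 adjusted p = 4.15e-15; edgeR adjusted p = 0.00133). It was the only member called in the test against a fold change of 1.5 (DESeq2 adjusted p = 7.03e-07), and it stayed called with total-count scaling (-1.70) and with each library left out in turn (-2.20 to -1.77).

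Calb2 (GRCm38 chr8:110137502-110168210, minus strand) fell as well. Normalized counts were 537, 487 and 580 in Control and 242, 353 and 263 in IDPN, with a clear gap between the groups. The mean in IDPN was 53.5% of that in Control, a log2 fold change of -0.90 (SE 0.22, DESeq2 adjusted p = 0.00125; edgeR adjusted p = 0.0271). With total-count scaling the value was -0.68 and the call was lost (DESeq2 adjusted p = 0.102). Among the 6 genes of the type II HC list, which includes Calb2 itself, Calb2 was the only one called. The 2 most abundant others, Anxa4 and Mapt, had log2 fold changes of -0.07 and -0.16 (DESeq2 adjusted p = 0.909 and 0.803).

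S100a1 (GRCm38 chr3:90511034-90514392, minus strand) was called at a smaller fold change. Normalized counts were 124218, 135999 and 89594 in Control and 54819, 80574 and 79097 in IDPN, and Control 3 lay close to the IDPN libraries. The log2 fold change was -0.71 (SE 0.20, DESeq2 adjusted p = 0.0132), and IDPN stood at 61.3% of Control. The call was lost with edgeR (-0.70, adjusted p = 0.185) and with total-count scaling (-0.44, DESeq2 adjusted p = 0.192). It was also lost without Control 1 (DESeq2 adjusted p = 0.0991), Control 2 (DESeq2 adjusted p = 0.183) or IDPN 1 (DESeq2 adjusted p = 0.130). As a share of all estimated counts, S100a1 took 0.242%, 0.278% and 0.232% in Control and 0.159%, 0.184% and 0.209% in IDPN, so the groups were also apart on this scale, by a narrow margin.

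Pvalb and Calb1 were lower in every IDPN library but did not pass the test. Pvalb (GRCm38 chr15:78191114-78206400, minus strand) had 154, 174 and 230 normalized counts in Control and 117, 141 and 116 in IDPN, with a log2 fold change of -0.59 (SE 0.27, 95% interval -1.12 to -0.05, DESeq2 adjusted p = 0.227). Calb1 (GRCm38 chr4:15881264-15908064, plus strand) had 118, 103 and 170 in Control and 90.2, 72.3 and 97.1 in IDPN, with a log2 fold change of -0.59 (SE 0.32, 95% interval -1.22 to 0.03, DESeq2 adjusted p = 0.334). Both intervals hold decreases of more than 1.5-fold as well as values near 0. Parvalbumin is also a protein of fast skeletal muscle and of neurons. The 12 skeletal muscle markers summed to only 84.5 to 122 normalized counts in Control and 62.2 to 114 in IDPN, with Tnnc2 at 0 in all libraries. Tnnt3, a troponin of fast muscle, was the 1 gene of 5 tested that was called lower by DESeq2 (adjusted p = 0.0179), with 21.8, 18.5 and 24.0 in Control and 4.97, 0 and 0 in IDPN. It was not called by edgeR or with total-count scaling, and among the fits without a library only the one without IDPN 1 called it. The part of muscle or neuron RNA in the Pvalb difference was not tested.

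**Figure D3:**
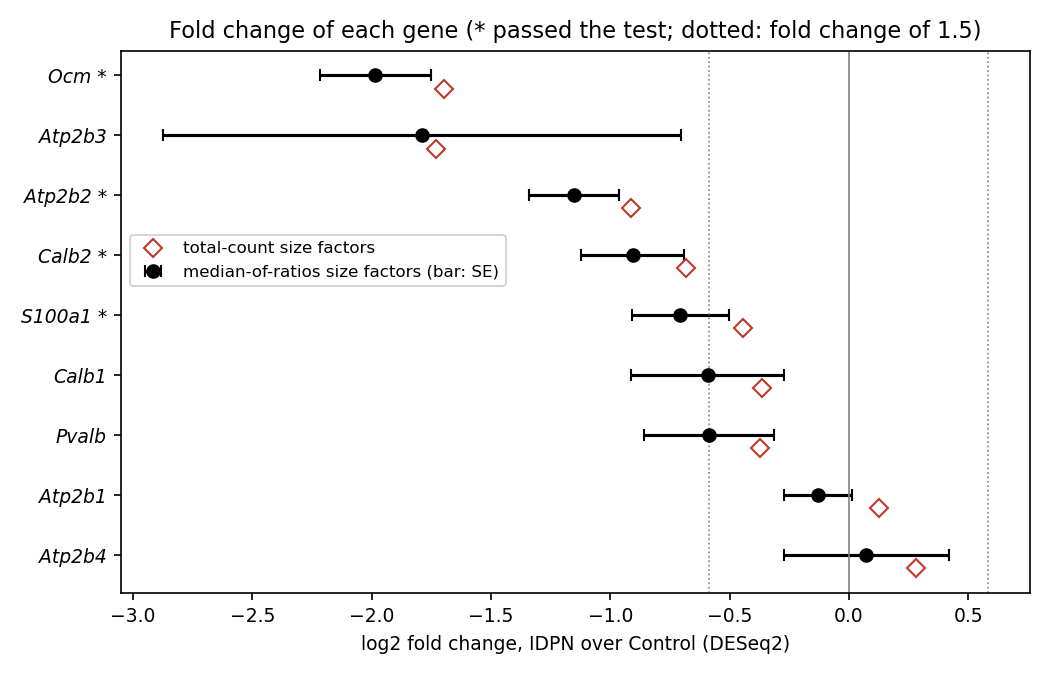
Log2 fold changes (IDPN over Control) of the 9 genes from DESeq2, with black points and SE bars for median-of-ratios scaling, open diamonds for total-count scaling and asterisks for genes that passed the test. The diamonds lay to the right of the points for all 9 genes, and Atp2b1 moved from -0.13 to 0.13 while Ocm remained lowest of the called genes at -1.70.

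Ocm and Pvalb belong to the same family of small EF-hand proteins, and their promoter windows are shown because Ocm fell most and Pvalb was not called. The RefSeq start of Ocm lies 23.9 kb upstream of the GENCODE gene model (GRCm38 chr5:144019804-144026670, minus strand), and its window is at chr5:144050610-144050859. The Pvalb window printed, chr15:78206401-78206650, ends right at the annotated gene start. Both are on the minus strand and are printed 5′ to 3′ with CG dinucleotides in capitals.
Ocm, chr5:144050610-144050859: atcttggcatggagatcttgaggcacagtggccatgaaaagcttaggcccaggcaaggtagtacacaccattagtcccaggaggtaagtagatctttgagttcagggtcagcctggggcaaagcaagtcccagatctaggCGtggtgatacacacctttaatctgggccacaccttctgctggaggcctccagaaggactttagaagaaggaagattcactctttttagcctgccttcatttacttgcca
Pvalb, chr15:78206401-78206650: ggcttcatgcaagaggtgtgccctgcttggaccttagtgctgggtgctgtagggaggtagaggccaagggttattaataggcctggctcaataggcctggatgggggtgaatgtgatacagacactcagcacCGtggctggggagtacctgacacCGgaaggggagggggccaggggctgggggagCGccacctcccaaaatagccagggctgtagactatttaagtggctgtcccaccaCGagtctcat
The Ocm window held a single CG at 49.6% G or C, and 7.87% of all windows held fewer. The printed Pvalb window held 4 CG at 58.4% G or C. A further Pvalb window within the gene (chr15:78204238-78204487), ahead of an internal start and also free of exons, held 23 CG at 71.6% G or C.

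The balance between buffers also differed. S100a1 made up 98.7% of the summed buffer level per kb in Control and 99.3% in IDPN, so nearly all buffer RNA by this measure was S100a1. Ocm made up 0.984%, 1.12% and 0.904% in Control and 0.520%, 0.364% and 0.410% in IDPN (means 1.00% ± 0.107 and 0.431% ± 0.0801, SD, n = 3; exact permutation test, two-sided, p = 0.10). Without S100a1, a sum chosen after seeing the data, Ocm took 76.0% ± 8.24 in Control and 59.3% ± 4.06 in IDPN (SD, n = 3), and the shares of Calb2 and Pvalb were higher in IDPN, at 22.1% against 14.3% and 16.2% against 8.40%. The summed level of these 4 buffers in IDPN was 32.9% of that in Control, and 39.7% with total-count scaling. The sum of all 5 was 60.9% of Control, and 73.1% with total-count scaling.

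Since the HC marker genes as a group were lower in IDPN, each member was also set against the geometric mean of these 29 genes within the same library, a ratio that is free of scaling. The HC mean itself differed by -0.55 (IDPN minus Control, log2), and 10 of the 29 genes were called lower (5 with total-count scaling). Relative to this mean, the difference was -1.39 for Ocm and -0.60 for Atp2b2, both without overlap between the groups (exact permutation test, two-sided, p = 0.10 each, the smallest possible). It was 0.42 for Atp2b1, also without overlap (exact p = 0.10). Against Myo7a alone, an HC myosin gene with a log2 fold change of 0.01 (DESeq2 adjusted p = 0.987), Atp2b1 was instead at -0.17. After Benjamini-Hochberg adjustment over the members, the exact p of Ocm, Atp2b2 and Atp2b1 against the HC mean was 0.3 each. The difference was -0.37 for Calb2 (exact p = 0.3), -0.16 for S100a1 (exact p = 0.5), and -0.02 for both Calb1 and Pvalb (exact p = 0.9 and 1). For these 4 genes the groups overlapped. The choice of reference mattered here, since against Myo7a alone the differences were -0.96 for Calb2, -0.61 for Calb1 and -0.61 for Pvalb (exact permutation p = 0.10 each), and -0.75 for S100a1 (exact p = 0.3). Ocm (-1.98) and Atp2b2 (-1.19) were lower against either reference (exact p = 0.10). Since Myo7a itself hardly differed, ratios to it stay close to the fold changes given above. The HC list does not separate HC types, and the study reports PMCA2 in type I but not type II HCs of the rat. It also cites human data in which Atp2b2 and Ocm are selective for type I HCs. In the type I HC list described below, the median log2 fold change was -1.10, against -1.15 for Atp2b2 and -1.98 for Ocm. A ratio to type I HC genes alone was not tested.

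**Figure D4:**
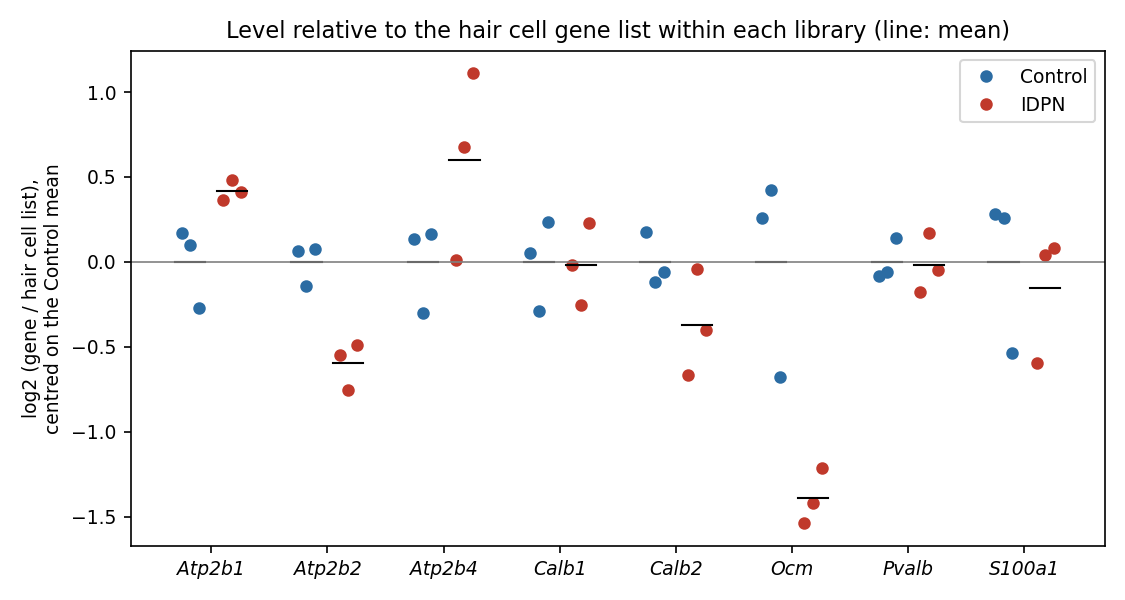
Points give the log2 ratio of each gene to the geometric mean of 29 HC marker genes in the same library, centred on the mean of the Control libraries; lines give group means and Atp2b3 is left out for its low counts. IDPN libraries lay apart from Control for Ocm (mean -1.39), Atp2b2 (-0.60) and Atp2b1 (0.42) and overlapped with Control for the other genes.

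Some cell type marker lists also held calls, against 3.42% lower and 2.32% higher over all genes tested. Bulk libraries do not show which cells carry the 9 RNAs. In the list set up for type I HCs, 8 of 9 genes were called lower (median log2 fold change -1.10; 6 with total-count scaling). The most abundant genes were Spp1, which was not called (DESeq2 adjusted p = 0.0502, groups overlapping), and Kcna10. For Kcna10, Xirp2, Lrtm2 and Rab3ip, the study gives selectivity for HCs over supporting cells, not for type I over type II HCs. All 8 called genes (with Gm1113 as Vsig10l2) are among those the study listed as downregulated in all of its comparisons. That list was chosen in part on these libraries, so the count is not independent evidence. In the vestibular neuron list, 3 of 10 tested genes were called lower (Nefl, Nefm and Snap25), and 0 with total-count scaling. Only 1 was called without Control 1 or without IDPN 1. Prph and Elavl4, both with few counts, lay above Control in all IDPN libraries (log2 fold changes of 1.51 and 1.12, DESeq2 adjusted p = 0.148 and 0.626). Elavl3 and Pou4f1 had mean normalized counts of 0.404 and 1.09 and were not tested. In the supporting cell list 2 of 13 were called lower (Gjb6 and Sparcl1) and 1 higher (Sox10), with a median of -0.39. With total-count scaling 1 was called lower, and with edgeR 0. The number ran from 1 without Control 1, Control 2, IDPN 1 or IDPN 3 to 4 without Control 3 or IDPN 2. Erythroid genes went the other way, with 4 of 5 tested genes called higher by DESeq2 and 0 by edgeR, led by Hbb-bs and Hba-a2, and sums of 16167 to 36635 in Control and 34690 to 49092 in IDPN. At most 1 erythroid gene was called when any library other than Control 2 was left out. Sums also varied between Control libraries in lists whose genes are not named here. Schwann cell markers summed to 232437, 125297 and 107104 in Control and 110151, 104514 and 91445 in IDPN. Stroma and cartilage markers summed to 2.77e+06, 2.61e+06 and 1.74e+06 in Control and 1.71e+06, 1.92e+06 and 1.90e+06 in IDPN. The part of cell composition in the members' differences was not tested.

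The other genes of calcium handling were examined by lists, against 3.42% called lower and 2.32% called higher over all genes tested. Cask, a membrane scaffold that binds PMCA4, was the only one of 7 pump subunits and partners called, with 1605, 1274 and 1207 normalized counts in Control and 649, 782 and 839 in IDPN (log2 fold change -0.85, SE 0.19, DESeq2 adjusted p = 0.000365, lost with total-count scaling at 0.0862). Nptn and Bsg, which encode the obligatory PMCA subunits neuroplastin and basigin, were not called, at -0.44 and -0.13 (DESeq2 adjusted p = 0.158 and 0.819). Among 8 tested calcium exchanger genes, the potassium-dependent exchanger Slc24a3 was called lower (-1.44, SE 0.41, DESeq2 adjusted p = 0.0125), with 69.1, 69.3 and 107 in Control and 38.1, 23.1 and 28.9 in IDPN. This call was lost with edgeR (adjusted p = 0.0708), with total-count scaling (-1.21, DESeq2 adjusted p = 0.136) and without Control 3, IDPN 2 or IDPN 3.

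Among internal store and mitochondrial genes, 1 store pump and 1 uniporter gene were called higher (2.32% of all genes) and none lower (3.42%). Of 6 tested store pump genes, Atp2c2, a Golgi calcium and manganese pump, was called higher (0.78, SE 0.23, DESeq2 adjusted p = 0.0190), while Atp2a2, the widely expressed pump of the endoplasmic reticulum, had a log2 fold change of -0.10 (DESeq2 adjusted p = 0.898). Of 7 genes of the mitochondrial calcium uniporter, Mcur1 was called higher (0.81, SE 0.27, DESeq2 adjusted p = 0.0455). Both calls were lost with edgeR (adjusted p = 0.0841 and 0.161), and leaving out single libraries ended that of Atp2c2 (without Control 1, Control 3, IDPN 1 or IDPN 3) and that of Mcur1 (without any library other than Control 3). None of 10 store release and store-operated entry genes was called by DESeq2 or edgeR, and 3 were lower at an unadjusted DESeq2 p under 0.05. These were Orai2, a store-operated channel subunit, at -0.57 (DESeq2 adjusted p = 0.0366), a fold change just under 1.5, Orai3 at -0.39 (DESeq2 adjusted p = 0.108) and the release channel Ryr2 at -1.95 from few counts (DESeq2 adjusted p = 0.0847). None of 13 calcium binders of the endoplasmic reticulum was called by DESeq2 or edgeR, and the 2 that were lower at an unadjusted DESeq2 p under 0.05 were Rcn1 (-0.46, DESeq2 adjusted p = 0.0938) and Hsp90b1 (-0.43, DESeq2 adjusted p = 0.159).

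Calcium sensor genes held several calls, all lower. Of 23 tested calmodulin and neuronal calcium sensor genes, 6 were called lower and none higher by DESeq2. With edgeR 3 of 22 were called lower, and with total-count scaling 5 of 21. Over all genes, the shares called lower were 3.42%, 2.19% and 1.28%. Cib3, which encodes a calcium and integrin binding protein of the HC transduction complex, had 10355, 9279 and 7638 normalized counts in Control and 4247, 4915 and 3968 in IDPN (-1.05, SE 0.17, DESeq2 adjusted p = 9.59e-08). The calmodulin gene Calm2 had a log2 fold change of -0.96 (SE 0.18, DESeq2 adjusted p = 1.55e-05, edgeR adjusted p = 0.0747). Kcnip4, a potassium channel partner, was at -1.53 (SE 0.30, DESeq2 adjusted p = 2.31e-05) and Hpcal1, a hippocalcin-like sensor, at -0.86 (SE 0.17, DESeq2 adjusted p = 2.76e-05). The list median was -0.25, against 0.02 over all genes. Cabp2 and Cib2 stand in both this list and the HC list, and neither was called.

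Of 12 other S100 genes tested, 3 were called lower and none higher by DESeq2 (3.42% and 2.32% over all genes). The list median was 0.06, and edgeR called 2 of 10 lower (2.19% over all genes). S100a13 had 2602, 3247 and 2117 normalized counts in Control and 867, 1321 and 1061 in IDPN (-1.29, SE 0.21, DESeq2 adjusted p = 1.29e-07, edgeR adjusted p = 0.00732). The start sites of S100a13 and S100a1 lie 42 bases apart on opposite strands of chromosome 3, and no exon bases are shared between them. S100b, a marker of supporting cells and Schwann cells, was at -0.97 (SE 0.21, DESeq2 adjusted p = 0.000156), lost with edgeR (adjusted p = 0.0844). S100a6 was at -0.66 (SE 0.19, DESeq2 adjusted p = 0.0110), lost with total-count scaling (DESeq2 adjusted p = 0.272) and without Control 1, Control 2, IDPN 1 or IDPN 3.

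**Figure D5:**
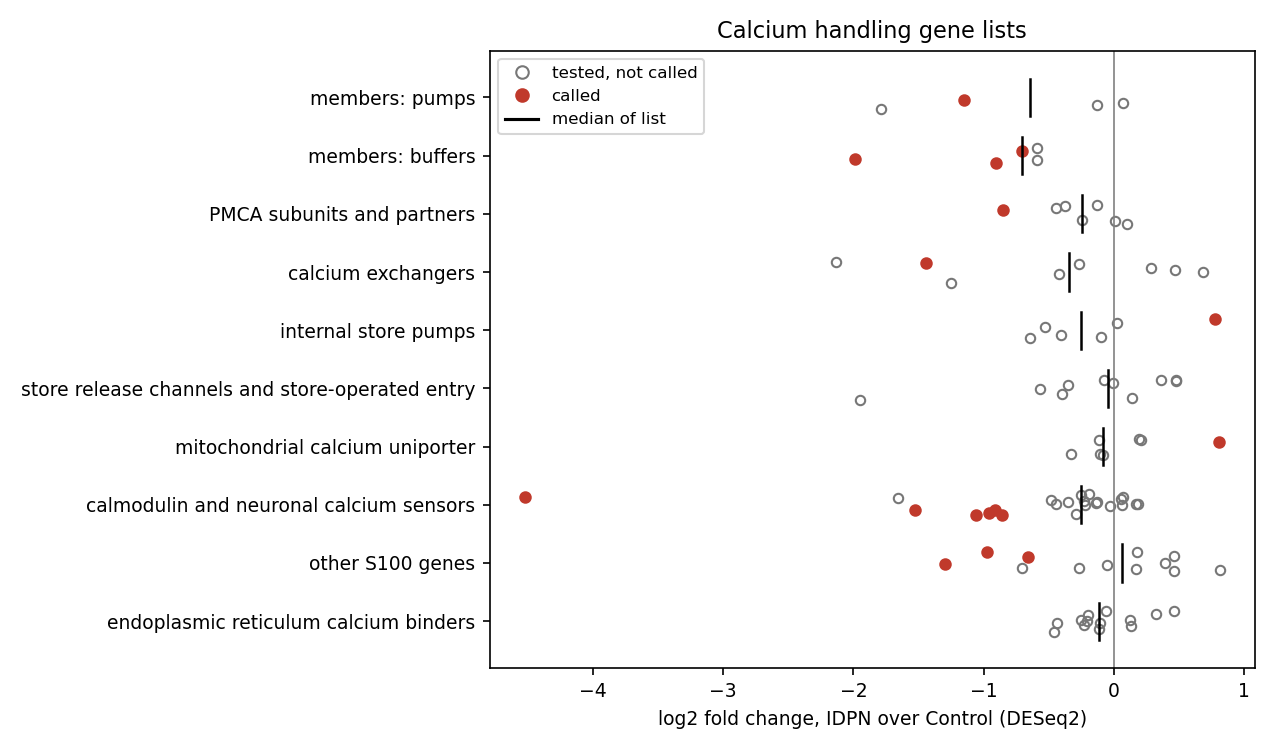
Log2 fold changes (IDPN over Control, DESeq2) of the tested genes in each calcium handling list, with filled points for called genes and a vertical bar for the list median. The exchanger, store and mitochondrial lists held 0 or 1 call each, the pumps and buffers 4 of 9, the sensors 6 of 23 and the other S100 genes 3 of 12. Over all genes tested, 3.42% were called lower and 2.32% higher.

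For the 4 called members, the genes with the most similar profile over the 6 libraries were sought by the root mean square (RMS) difference of centred log2 values among 11197 genes. Nearest to Atp2b2 were Dnah1 (RMS difference 0.0598), Cdk14 (0.0627) and Asphd2 (0.0692). For Calb2 they were Kif9 (0.0992), Pgam1-ps2 (0.103) and Dnali1 (0.116). For Ocm no gene came as close, with Fam81b at 0.171, Smoc2 at 0.204 and Cxcl12 at 0.272. For S100a1 they were Armc3 (0.0671), Atp5e (0.0685) and Ost4 (0.0745). All 12 genes were themselves called lower in IDPN, which follows from how they were chosen.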

How the data were processed

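Vestibular epithelium from 6 mice was sequenced as paired reads from 6 to 11 ng of total RNA, with 8 cDNA and 12 library amplification cycles. The authors aligned reads with STAR 2.5.3a to GRCm38 and estimated counts per gene with RSEM 2.3.0 (versions per the labels) on GENCODE M15. The deposited table holds the resulting estimated (expected) counts as whole numbers, not normalized and not filtered. Reads matching more than 1 gene are shared out by RSEM.

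Groups came from the labels. DESeq2 1.42.0 (R 4.3.3) was fitted to the whole table without covariates, with median-of-ratios size factors, Benjamini-Hochberg adjustment and the study's thresholds (adjusted p under 0.05, fold change over 1.5). Alternatives were edgeR 4.0.16, TMM and total-count size factors, a filter of at least 10 counts in 3 libraries, no independent filtering, no Cook's filter, a test against a fold change of 1.5, and leaving out each library. Other values were compared by two-sided exact permutation tests. Replicates are separate animals. Exon lengths came from GENCODE M21 (GRCm38), and promoter windows from RefSeq (GRCm38.p6). Ratios to HC genes used a pseudocount of 0.5 and HC genes with a mean of at least 10; profile likeness used log2(normalized count + 1) and genes with a mean of at least 100. The code was tested on simulated data, in which false calls exceeded the nominal rate with DESeq2 and, less so, with edgeR. The members and gene lists were chosen with earlier results of these data known. All 9 members were named, with the 3 most similar profiles of each called member, up to 4 called genes of each pathway list (in lists with none, the 2 with the lowest p) and the 2 most abundant genes of the cell type lists described.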

Additional observations from a re-analysis of the deposited data

How the results depend on the processing

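Across 13 alternatives, the direction of Atp2b2, Atp2b3, Calb1, Calb2, Ocm, Pvalb and S100a1 remained lower in each fit that gave a value, and Ocm kept its call in all 13. No member was called higher in any. Called members numbered 4 of 9, 2 with total-count scaling, 1 in the test against a fold change of 1.5 and 3 to 4 without a library. With total-count scaling, Atp2b1 turned to 0.13, and Calb2 (-0.68, adjusted p = 0.102) and S100a1 (-0.44, 0.192) lost the call. In the test against a fold change of 1.5, Atp2b2 (-1.15, adjusted p = 0.251), Calb2 (-0.90) and S100a1 (-0.71) lost it. S100a1 also lost it with edgeR (-0.70), and ran from -0.86 to -0.54 without a library. Atp2b4 ran from -0.18 to 0.30 without a library. Relative to the HC genes, Atp2b1 was -0.17 against Myo7a alone, where Calb2 was -0.96, Calb1 -0.61 and Pvalb -0.61 (exact p = 0.10 each), and without a library Calb1 ran from -0.162 to 0.104, Pvalb from -0.111 to 0.0633 and S100a1 from -0.425 to 0.0615. Without a library, the difference in the Atp2b2 share ran from -8.66 to -5.95 percentage points and in the Ocm share of all buffers from -0.62 to -0.51. The cause was not tested.

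No paired analysis was made, since Control and IDPN libraries came from separate animals. The labels give no replicate numbers, and replicates were numbered in accession order. Depth limits Atp2b3 most, with at most 31 estimated counts in a library, and reads without molecular identifiers make counting error an underestimate.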
